A study of Mus musculus with 12 samples.

Results

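S100a4, S100a6, S100a10, S100a11, Lgals1, Lgals3, Vim, Anxa2, Crip1 and Ahnak are 10 of the 32285 genes counted in single T cells of mouse brain. They were chosen by symbol, as calcium-binding S100 proteins, galectins, an annexin and their cytoskeletal partners that are known from memory T cells, and all 10 were present in the files. The T cells came from perfused brains of female mice aged 9 months, sorted as CD4+, CD8+ or gamma-delta T cells, and each library held the pooled cells of several mice of 1 genotype. Both the transcripts (5′ droplet libraries with unique molecular identifiers, UMIs, which count each captured RNA molecule once) and the T cell receptor of each cell were sequenced.

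There were 6 pools of 4 genotypes, all from 1 cross of hemizygous 5XFAD mice, a congenic C57BL6 line with mutant human transgenes that lead to amyloid plaques, and hemizygous PS19 mice, which carry a mutant human MAPT transgene under the promoter of the mouse prion protein gene. The pools with the amyloid transgenes were 5XFAD-1 (4 mice), 5XFAD-2 (3 mice) and PS-5X (4 mice), the last with both sets of transgenes. The pools without them were PS19 (4 mice), WT-1 (10 mice) and WT-2 (8 mice), and wild-type mice were littermates without any transgene. PS19 and PS-5X mice thus had 1 pool each, and the sequencing run of 5XFAD-2 and WT-2 was not that of the other pools. A pool is the unit of replication in every test, except in an alternative that split each pool by cluster. The p-values thus rest on pools of mice and do not measure the spread between single mice. Where both sides came from the same pools, they measure how much the difference within pools varied. In comparisons of cell classes that spread was estimated over all classes together.

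S100 proteins are small calcium sensors with a pair of EF hands that change shape when they bind calcium and then dock onto partner proteins. S100a10 is the exception, since it no longer binds calcium and instead forms a tetramer with annexin A2, the product of Anxa2, which binds calcium and membrane phospholipid, and this complex recruits the giant scaffold protein encoded by Ahnak to the membrane. Galectins bind galactose-containing sugars on surface glycoproteins such as CD45 and integrins, and galectin-1 (Lgals1) and galectin-3 (Lgals3) are made in the cytosol and leave the cell by an unconventional route. Vim encodes the intermediate filament protein vimentin, and Crip1 a small LIM domain protein. These genes are known to be lower in naive than in antigen-experienced T cells, which is why they are used as memory genes.

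The S100 members lie on mouse chromosome 3 in the coordinates of GRCm38.p6. S100a4 (chr3:90603770-90606045) and S100a6 (chr3:90612894-90614414) are separated by 6849 bases that hold S100a5, and S100a11 (chr3:93520496-93526288) and S100a10 (chr3:93555117-93564645) by 28829 bases. The other members lie on chromosomes 2 (Vim), 9 (Anxa2), 12 (Crip1), 14 (Lgals3), 15 (Lgals1) and 19 (Ahnak). Promoter sequences from RefSeq (GRCm38.p6, 250 bases before and 50 bases after the annotated start, all on the plus strand) were found for 8 members, all but S100a10 and Lgals1. The promoters of S100a4 and S100a6 are shown because both genes had some of the largest differences between naive and non-naive cells, and those of S100a11 and Anxa2 because they held matches to the AP-1 site. They are chr3:90603520-90603819, chr3:90612644-90612943, chr3:93520246-93520545 and chr9:69453433-69453732. Capitals mark matches to the AP-1 motif TGANTCA and to the KLF motif CCACCC on either strand.
S100a4 promoter: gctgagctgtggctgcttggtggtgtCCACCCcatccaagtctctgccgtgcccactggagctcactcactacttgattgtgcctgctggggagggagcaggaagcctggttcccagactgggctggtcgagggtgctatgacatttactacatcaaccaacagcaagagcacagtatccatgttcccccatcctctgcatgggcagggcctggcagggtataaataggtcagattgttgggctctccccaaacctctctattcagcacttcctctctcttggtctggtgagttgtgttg
S100a6 promoter: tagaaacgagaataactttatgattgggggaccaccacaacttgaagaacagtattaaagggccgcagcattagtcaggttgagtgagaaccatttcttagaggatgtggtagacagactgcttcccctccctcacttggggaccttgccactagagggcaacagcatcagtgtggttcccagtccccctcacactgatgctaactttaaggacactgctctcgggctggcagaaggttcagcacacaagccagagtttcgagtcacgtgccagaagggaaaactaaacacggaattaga
S100a11 promoter: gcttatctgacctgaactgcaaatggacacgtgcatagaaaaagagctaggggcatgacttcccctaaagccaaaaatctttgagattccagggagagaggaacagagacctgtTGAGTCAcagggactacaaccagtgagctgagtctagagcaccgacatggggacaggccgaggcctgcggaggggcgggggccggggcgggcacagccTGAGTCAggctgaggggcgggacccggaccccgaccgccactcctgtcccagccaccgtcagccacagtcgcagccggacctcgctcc
Anxa2 promoter: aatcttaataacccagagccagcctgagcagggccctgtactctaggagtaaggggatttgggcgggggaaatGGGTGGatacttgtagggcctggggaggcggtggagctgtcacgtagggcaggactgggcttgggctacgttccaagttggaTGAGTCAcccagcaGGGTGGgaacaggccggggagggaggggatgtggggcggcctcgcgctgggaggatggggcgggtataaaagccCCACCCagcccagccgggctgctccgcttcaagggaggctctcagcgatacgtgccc
The AP-1 motif was found in the promoters of S100a11, with 2 matches, and Anxa2, with 1, against 7.81% of 32851 mouse promoters of the same length. The KLF motif was found in 5 of the 8 promoters, those of S100a4, Vim, Anxa2, Crip1 and Ahnak, against 31.5% of all promoters. S100a6 held 3 matches to the RUNX motif TGTGGT (16.8% of promoters), and the T-box motif GGTGTGA (3.98% of promoters) was in none of the 8. The SP motif GGGCGG was in 5 of the 8 (35.7% of promoters) and the TCF/LEF motif CTTTGA in that of S100a11 (16% of promoters). A match is a run of letters and says nothing of binding in these cells.

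The files held 854 to 6373 cell barcodes and 5883210 to 38616794 UMIs per pool, and 17376 cells remained after quality filters and removal of doublets. Cells were clustered without the 10 genes and without 64 related genes, and clusters were named from lineage and naive marker genes. Defining markers of the sorted lineages were detected, with Trdc in 72.2% of cells of the gamma-delta cluster, Cd4 in 81.0% of the non-naive CD4 cluster and Cd8b1 in 75.8 to 96.9% of the non-naive CD8 clusters, and 9 clusters with 1885 cells in all were left unnamed, among them 1 led by immunoglobulin genes (142 cells) and 1 by Ttr (122 cells). This gave 852 gamma-delta T cells, 181 Foxp3 CD4 T cells, 1687 other non-naive CD4 T cells, 1301 naive CD4 T cells, 9476 non-naive CD8 T cells and 1994 naive CD8 T cells. The smallest class was the Foxp3 CD4 T cells of WT-1, with 4 cells. Receptors were shared between some pools: 555 of 1873 5XFAD-1 cells with both receptor chains (29.6%), 181 of 4331 PS-5X cells (4.18%), 168 of 1759 PS19 cells (9.55%) and 169 of 559 WT-1 cells (30.2%) carried a receptor that was also found in another pool, against none in 5XFAD-2 and WT-2. Pools shared 1 to 23 cell barcodes per pair and none of these with the same receptor. Every comparison was therefore also made without each pool in turn, without the WT-1 cells that shared a receptor, and without all cells that did so in any pool, the last an alternative chosen after seeing the data.

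**Figure D1:**
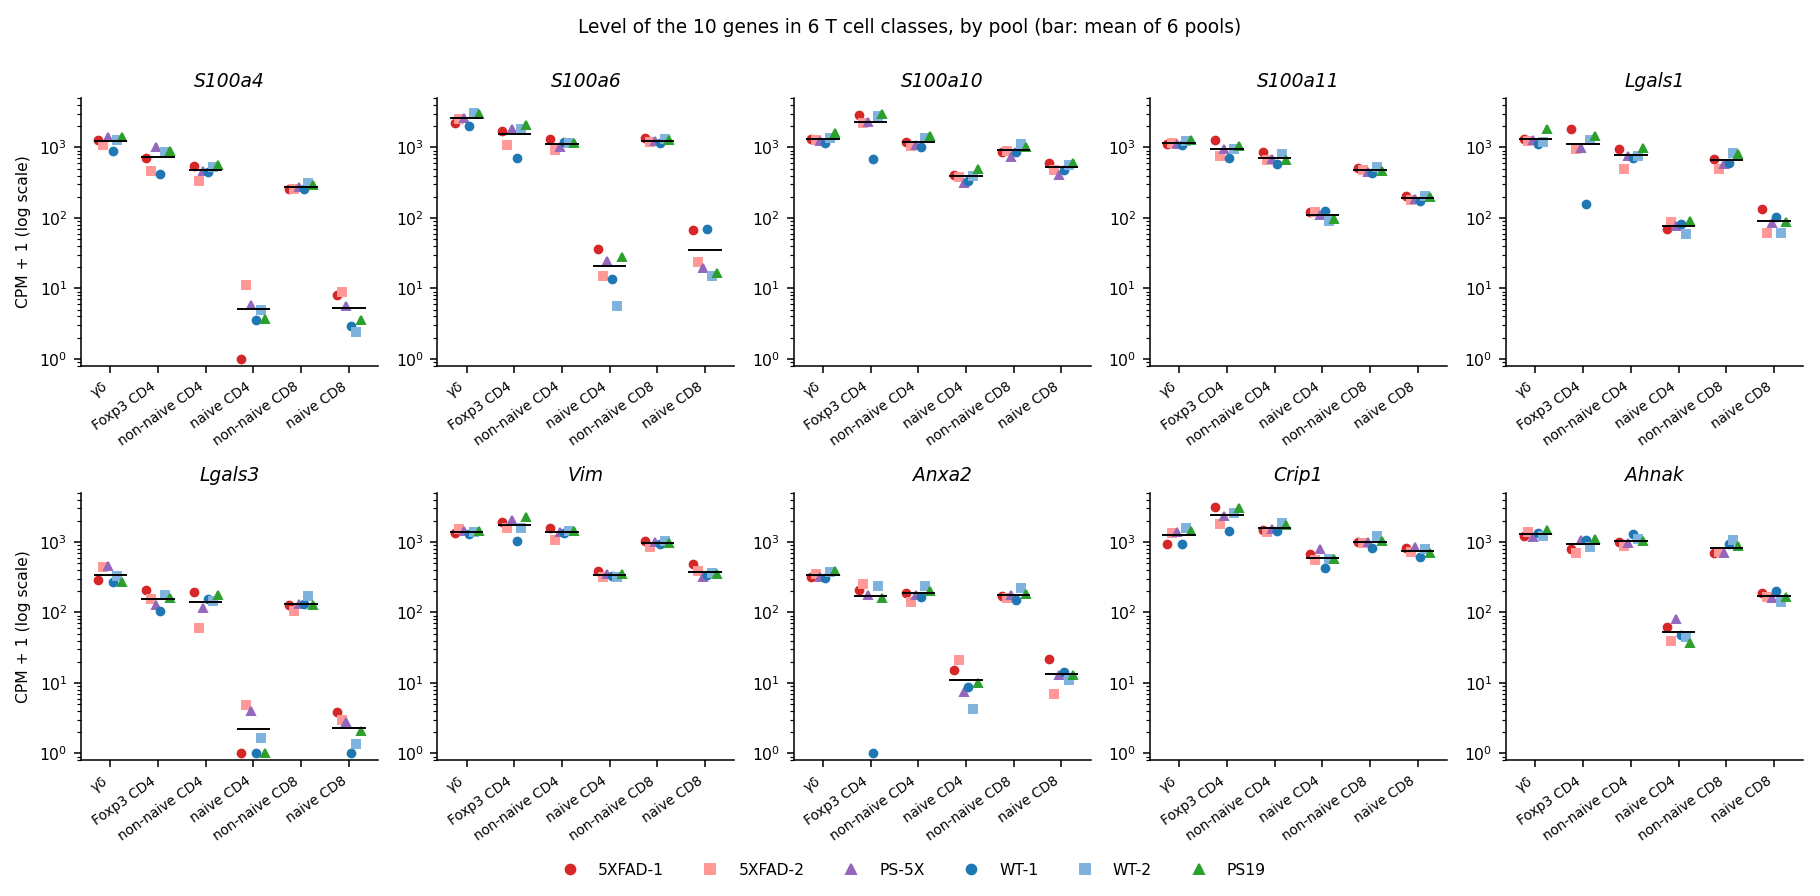
Level of each gene (CPM plus 1, log axis) in the summed cells of 6 T cell classes, with 1 point per pool and a bar at the mean of the 6 pools. S100a4, S100a6, Lgals3 and Anxa2 drop by more than 10-fold in both naive classes, while S100a10, S100a11, Vim and Crip1 keep 89.6 CPM or more in every naive pool.

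The first question was where among brain T cells these genes are expressed. Levels below are in CPM, the usual depth-normalised count, taken from the summed UMIs of a class in a pool with TMM scaling, and they are compared for 1 gene across classes and not between genes. S100a4, which binds non-muscle myosin and is linked to cell motility, was highest in gamma-delta T cells, with 1265, 1077, 1393, 1401, 888 and 1267 CPM in 5XFAD-1, 5XFAD-2, PS-5X, PS19, WT-1 and WT-2. In the same order of pools it had 553, 335, 467, 567, 448 and 529 in non-naive CD4 T cells, and 260.5, 259.6, 272, 291, 254 and 309 in non-naive CD8 T cells. Naive cells were almost free of it: naive CD8 T cells had 1.39 to 7.83 CPM (42 UMIs in all) and naive CD4 T cells 0 to 10.2 (27 UMIs in all). The ranges of non-naive CD4 and non-naive CD8 T cells did not overlap, nor did those of non-naive and naive CD8 T cells. Foxp3 CD4 T cells had 420.4 to 1022, a range that overlapped that of gamma-delta T cells.

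S100a6, a small calcium sensor, followed the same order at the top, with 2002 to 3094 CPM in gamma-delta T cells and 709 to 2065 in Foxp3 CD4 T cells. It differed from S100a4 in that non-naive CD8 T cells (1248 ± 79.5, SD, n = 6 pools) were not below non-naive CD4 T cells (1129 ± 147). In naive CD8 T cells it stood at 66.0 in 5XFAD-1 and 69.1 in WT-1, against 14.2 to 22.8 in the other 4 pools, so that 2 pools of this class lay apart from the rest. S100a11, which is found with annexins at the plasma membrane, had 1092 to 1257 in gamma-delta, 579.7 to 849.7 in non-naive CD4 and 436 to 519.5 in non-naive CD8 T cells. Its floor was much higher than that of S100a4: 175 to 202 in naive CD8 and 89.6 to 126 in naive CD4 T cells, 2 ranges that did not overlap. S100a10 was highest in Foxp3 CD4 T cells (2307 ± 862), then in gamma-delta (1324 ± 149) and non-naive CD4 T cells (1196 ± 186), and still had 312 to 496 in naive CD4 T cells.

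Both galectins were highest in gamma-delta T cells. Lgals3 had 287, 435, 454, 267, 269 and 327 CPM there in 5XFAD-1, 5XFAD-2, PS-5X, PS19, WT-1 and WT-2, above the 105 to 209 of Foxp3 CD4 T cells in every pool. Non-naive CD8 (103 to 168) and non-naive CD4 T cells (59.8 to 193) overlapped, and naive cells were near 0, with 14 UMIs in all in naive CD8 and 9 in naive CD4 T cells. Lgals1 had 1101 to 1821 in gamma-delta, 158 to 1800 in Foxp3 CD4, 491 to 966 in non-naive CD4 and 490.3 to 837 in non-naive CD8 T cells, against 60.7 to 135 in naive CD8 and 58.6 to 89.7 in naive CD4 T cells. The low Foxp3 value of Lgals1 was that of WT-1, from 6 UMIs in 4 cells.

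Anxa2, whose product pairs with S100a10, had 309.7 to 381 CPM in gamma-delta T cells, apart from the 142 to 234 of non-naive CD4 and the 150.2 to 218 of non-naive CD8 T cells, and 3.29 to 21.1 in the naive classes. Anxa2 and S100a10 thus did not share a pattern in naive cells, where S100a10 kept 312 CPM or more. Vim was highest in Foxp3 CD4 T cells (1741 ± 444) and had 1282 to 1538 in gamma-delta, 1063 to 1581 in non-naive CD4 and 840.4 to 1047 in non-naive CD8 T cells, against 313 to 489 in the naive classes. Crip1 had the flattest profile of the 10, at 2374 ± 673 in Foxp3 CD4, 1569 ± 194 in non-naive CD4 and 1264 ± 273 in gamma-delta T cells, and still 599.9 ± 126 in naive CD4 T cells. Ahnak had 1184 to 1465 in gamma-delta, 881 to 1287 in non-naive CD4 and 699 to 1063 in non-naive CD8 T cells. In naive cells Ahnak separated the lineages, with 141 to 199.6 in naive CD8 and 35.3 to 80.9 in naive CD4 T cells.

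Non-naive cells were set against naive cells of the same lineage, with both classes named from marker genes and not from known exposure to antigen. All 10 genes were higher in non-naive than in naive CD8 T cells, where 23% of the 9823 genes tested were higher and 21.7% lower, 44.7% in all (edgeR quasi-likelihood test with pool as a block, Benjamini-Hochberg adjusted p under 0.05 over all genes). All 10 were also higher in non-naive than in naive CD4 T cells, where 21.2% of genes were higher and 18.5% lower, 39.8% in all. The step ran over a wide scale. In CD8 T cells the log2 fold change was 6.67 (SE 0.33) for Lgals3, 6.24 (SE 0.20) for S100a4, 5.70 (SE 0.22) for S100a6, 4.00 (SE 0.15) for Anxa2, 3.03 for Lgals1 and 2.32 for Ahnak, and only 1.39 for Vim, 1.32 for S100a11, 0.83 for S100a10 and 0.43 (SE 0.10, adjusted p = 0.00034) for Crip1. Crip1 was the one gene whose pools overlapped between the classes, with 833 to 1226 CPM in non-naive and 603 to 858 in naive CD8 T cells. Even so, Crip1 was higher in non-naive cells within all 6 pools. The share of all genes without overlap is not given here.

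In CD4 T cells the largest step was that of S100a4, at 6.85 (SE 0.22), followed by Lgals3 at 6.57, S100a6 at 5.92, Anxa2 at 4.45 and Ahnak at 4.31, and the smallest were Vim at 2.02, S100a10 at 1.64 and Crip1 at 1.39. The median over the 10 genes was 2.68 in CD8 and 3.82 in CD4 T cells, against −0.01 and 0.00 over all genes tested. The direction held without WT-1, with S100a4 at 6.20 in CD8 and 6.81 in CD4 T cells. An alternative naive class was drawn from cells with UMIs of at least 4 naive marker genes and no UMI of Ccl5, a CD8 marker gene. All 10 genes were then still higher but with smaller steps, 3.47 for S100a4 in CD8 and 1.77 in CD4 T cells. Some marker lists of other cells moved with or against the step, and their part in the result was not tested. The monocyte and neutrophil list moved with it, at 55.3 to 84.9 CPM in non-naive and 0 to 1.68 in naive CD8 T cells, and at 59.2 to 140.5 in non-naive and 0 to 4.68 in naive CD4 T cells, from 1 or 2 of its 8 genes in each non-naive pool. The NK list had 9.45 to 38.0 in non-naive and 0 to 1.45 in naive CD8 T cells. The B cell list (Cd79a, Cd79b, Ms4a1, Ighm) moved against the step, with 52.7 to 75.6 in non-naive and 195 to 275 in naive CD8 T cells, and 80.0 to 128 in non-naive and 222 to 309.5 in naive CD4 T cells.

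**Figure D2:**
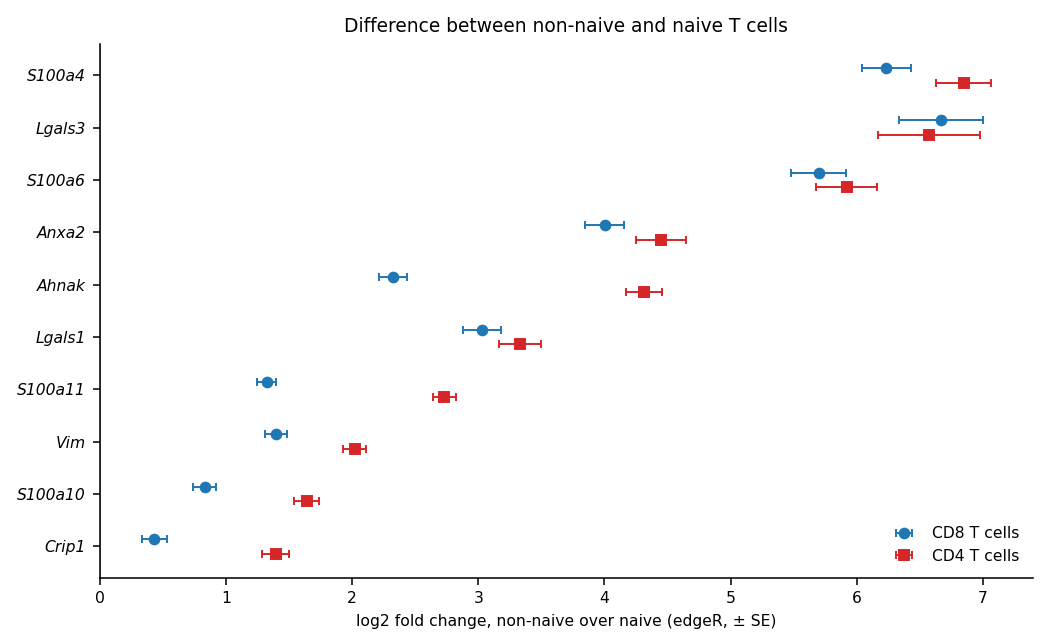
Log2 fold change of non-naive over naive cells for each gene (points, with bars of the SE) in CD8 and in CD4 T cells, from edgeR over 6 pools. S100a4, Lgals3 and S100a6 lie between 5.70 and 6.85 in both lineages, and Ahnak, S100a11, Vim, S100a10 and Crip1 lie further right in CD4 than in CD8 T cells.

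The step was smaller in CD8 than in CD4 T cells for 5 of the 10 genes, by a test of the difference itself, in which 4.89% of all genes were lower and 2.73% higher, 7.61% in all. The difference, CD8 minus CD4 on the log2 scale, was −1.99 (SE 0.18, adjusted p = 4.6e-11) for Ahnak, −1.41 (SE 0.12, adjusted p = 5.3e-12) for S100a11, −0.96 for Crip1, −0.81 for S100a10 and −0.63 for Vim. The other 5, among them S100a4 at −0.61 (SE 0.51) and Lgals3 at 0.10 (SE 1.1), did not pass, with SEs of 0.23 to 1.1. The call depended on how naive cells were drawn: with the classes from marker UMIs none of the 10 was lower in CD8, and S100a4, S100a6, Anxa2 and Lgals3 were higher there, at 1.69, 2.12, 2.01 and 2.63.

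Related genes were read from a list of 64 other S100 genes, galectins, annexins, LIM and cytoskeletal partners, galectin-bound or memory-marking surface glycoproteins and glycan-branching enzymes, of which 43 could be tested. In CD8 T cells 29 of the 43 were higher in non-naive cells and 5 lower, with a median of 0.40 against −0.01 for all genes. The largest rises were those of Itgb1, the integrin beta-1 chain, with 418 ± 26.3 against 54.2 ± 18.0 CPM (log2 3.03), and Cd44, the hyaluronan receptor used as a memory marker, with 77.4 ± 7.07 against 13.7 ± 6.01 (log2 2.72). Lmna, the nuclear lamin A/C gene, rose by a log2 of 2.34 and the actin-capping gene Capg by 1.72. Csrp1, a LIM protein like Crip1, fell by 0.75 on the log2 scale, and the glycan-branching enzyme Mgat5 fell by 0.57. Tmsb10, an actin-sequestering thymosin, fell by 0.48, and the integrin gene Itgb7 fell by 0.38. In CD4 T cells 35 of the 43 were higher and 2 lower, with a median of 0.66; Itgb1 rose by 4.13, Lmna by 3.64, Cd44 by 3.35 and Capg by 2.99, and the 2 lower genes were Csrp1 and Tmsb10. The annexins other than Anxa2 rose in 6 of 6 tested in CD4 and in 5 of 6 in CD8 T cells. Only 3 of the 12 other S100 genes could be tested, and S100a8 and S100a9, the neutrophil S100 genes, had no UMI in gamma-delta T cells.

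Gamma-delta T cells, with the interleukin-17 program genes Il17a and Il23r among their leading genes, were set against both non-naive alpha-beta classes. Against non-naive CD8 T cells all 10 genes were higher, among 25.2% of genes higher and 24.9% lower, 50.2% in all. S100a4 had the largest difference (1215 ± 199 in gamma-delta and 275 ± 21.6 CPM in non-naive CD8 T cells, log2 2.14, SE 0.10, adjusted p = 1.7e-22), followed by Lgals3 at 1.43, S100a11 at 1.28, S100a6 at 1.05, Lgals1 at 0.99 and Anxa2 at 0.94. Ahnak at 0.66, Vim at 0.54, S100a10 at 0.54 and Crip1 at 0.32 differed less. Crip1 was the only one of the 10 whose pools overlapped, and the share of all genes without overlap is not given here. With classes from marker UMIs Vim (0.29, adjusted p = 0.084) and Crip1 (0.19, adjusted p = 0.27) did not pass.

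Against non-naive CD4 T cells 7 genes were higher, among 21.9% of genes higher and 21.5% lower, 43.4% in all: S100a4 (log2 1.34), Lgals3 (1.34), S100a6 (1.21), Anxa2 (0.87), Lgals1 (0.79), S100a11 (0.70) and Ahnak (0.34). Crip1 was lower in gamma-delta T cells, at 1264 ± 273 against 1569 ± 194 CPM, by 0.32 on the log2 scale (adjusted p = 0.0084, lower in 6 of 6 pools). Vim and S100a10 did not pass, at 0.03 and 0.15. With classes from marker UMIs 5 of these calls remained, those of S100a4, S100a6, S100a11, Lgals3 and Anxa2, and Crip1 did not pass (−0.28, adjusted p = 0.096).

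Among the related genes Capg had 1192 ± 54.3 CPM in gamma-delta and 50.3 ± 5.15 in non-naive CD8 T cells (log2 4.57), and Mgat5 206 ± 16.9 against 23.4 ± 2.45 (log2 3.16). The integrin genes Itga4 and Itgb1 went the other way. Itga4 had 31.2 ± 15.1 in gamma-delta against 419 ± 32.4 in non-naive CD8 T cells (log2 −3.86). Itgb1 had 85.9 ± 11.4 against 418 ± 26.3 (log2 −2.32). Of the 43 tested, 19 were higher and 8 lower than in CD8, and 15 higher and 13 lower than in non-naive CD4 T cells. The list of monocyte and neutrophil markers summed to 406 to 485 CPM in gamma-delta and 55.3 to 84.9 in non-naive CD8 T cells, but 1 gene of the 8, the chemokine receptor gene Ccr2, gave all of it in gamma-delta T cells and the other 7 had no UMI. The microglia and macrophage list was at 31.8 to 43.2 in gamma-delta and 41.7 to 53.7 in non-naive CD8 T cells.

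Within the alpha-beta lineages, non-naive CD4 T cells were higher than non-naive CD8 T cells for 6 genes, where 14.6% of genes were higher and 12.9% lower, 27.5% in all. These were S100a4 (log2 0.80, SE 0.10), Crip1 (0.64), S100a11 (0.57), Vim (0.51), S100a10 (0.39) and Ahnak (0.33). S100a6 (−0.15), Lgals1 (0.20), Lgals3 (0.09) and Anxa2 (0.08) did not pass. Ahnak did not pass once a CD8 cluster described below was left out (adjusted p = 0.068). Capg at 2.46 and Lmna at 2.11 were the related genes with the largest rise in CD4, and Cd7, a surface glycoprotein bound by galectin-1, had the largest fall, at −1.46.

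Foxp3 CD4 T cells, the regulatory class, were higher than the other non-naive CD4 T cells for 7 genes, where 7.71% of genes were higher and 7.94% lower, 15.6% in all. S100a10 had the largest difference, with 2892, 2202, 2268, 3000, 683 and 2796 CPM in Foxp3 cells of 5XFAD-1, 5XFAD-2, PS-5X, PS19, WT-1 and WT-2, against 1203, 1045, 1096, 1462, 999 and 1371 in other CD4 T cells (log2 1.01, SE 0.10, adjusted p = 9.3e-11). Foxp3 cells were higher in every pool but WT-1, which had 4 such cells, and the value without WT-1 was 1.07. S100a4 (0.64), Lgals1 (0.61), Crip1 (0.60), S100a6 (0.52), S100a11 (0.43) and Vim (0.38) were also higher, and Lgals3, Anxa2 and Ahnak did not pass, at 0.18, 0.08 and −0.17. Among related genes Csrp1 (1.23) and Lmna (1.14) rose and Itga4 (−1.0) and Cd44 (−0.78) fell. The B cell list had 451 to 593 CPM in Foxp3 cells and 80.0 to 128 in other CD4 T cells, and its part in these differences was not tested. With DESeq2 in place of edgeR, S100a4 (adjusted p = 0.056) and S100a6 (0.31) did not pass, and with classes from marker UMIs S100a4 (adjusted p = 0.21), S100a6 (0.12) and Lgals1 (0.074) did not. S100a6 also did not pass with edgeR when PS-5X (adjusted p = 0.092), PS19 (0.10) or WT-2 (0.055) was left out.

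**Figure D3:**
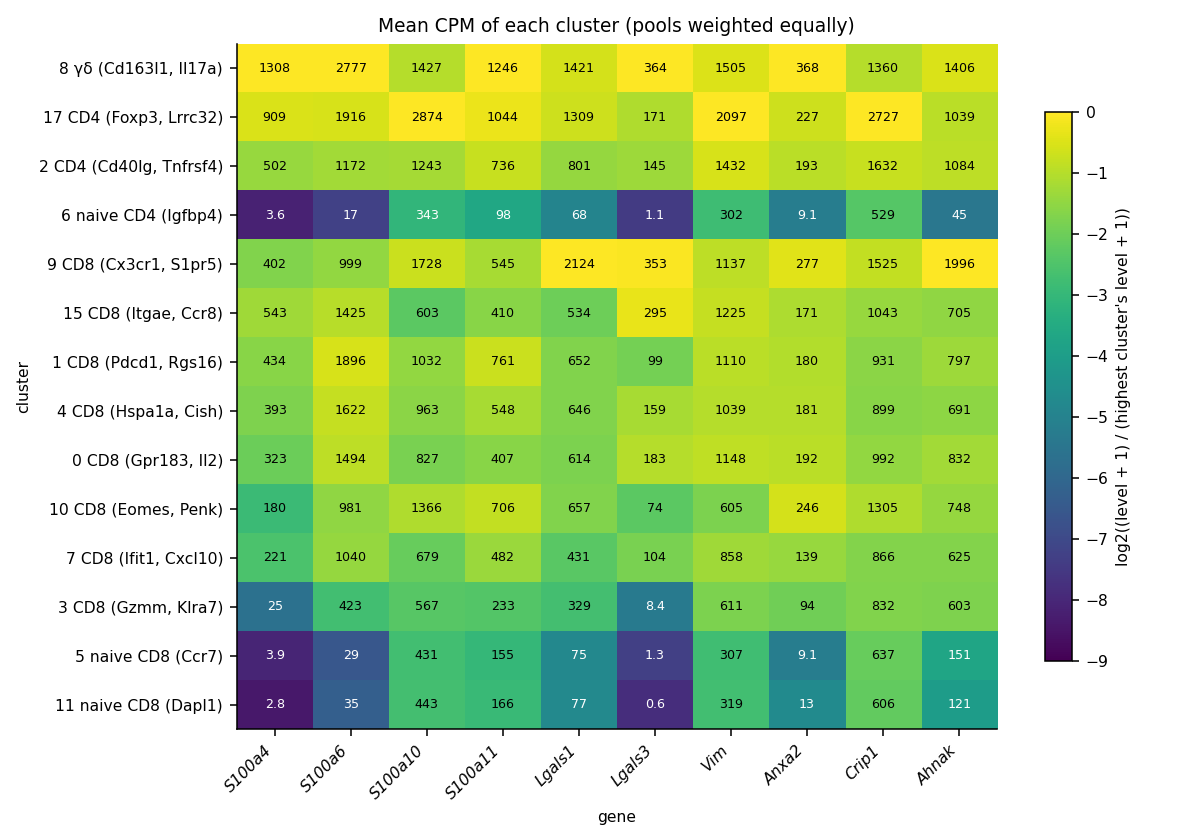
Mean CPM of each gene in each named cluster, over the pools with enough cells and weighting pools equally (numbers), coloured by the log2 ratio to the highest cluster of that gene. The Gzmm and Klra7 cluster 3 lies between the naive and the other non-naive CD8 clusters for S100a4 and Lgals3, and the Cx3cr1 and S1pr5 cluster 9 is the highest alpha-beta cluster for Lgals1, Lgals3 and Ahnak.

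The 10 genes did not rise together inside the non-naive CD8 class. The values by cluster are plain CPM, without TMM scaling, and are given as a description, since clusters were drawn from the same cells. A cluster of 1462 cells had Gpr15, Klra7 and Gzmm among its leading genes. It had a mean of 25.4 for S100a4 and 8.40 for Lgals3, against 3.93 and 1.34 in the larger naive CD8 cluster and 323 and 183 in the largest non-naive CD8 cluster. The same cluster had 423 for S100a6, 329 for Lgals1 and 603 for Ahnak, against 28.6, 74.8 and 151 in that naive cluster. In it 4 of the 10 naive markers were at least 2-fold higher than in other CD8 cells, and a cluster needed 6 to be called naive. Without this cluster all 10 genes were still higher in non-naive than in naive CD8 T cells, with S100a4 at 6.55 and Lgals3 at 6.99 on the log2 scale. S100a4 was 434 in the cluster led by Pdcd1, 402 in that with Cx3cr1 and S1pr5 among its leading genes, 543 in that with Itgae and Ccr8 (measured in 1 pool only) and 179.5 in that with Eomes, Penk and the immunoglobulin gene Igkc.

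The Cx3cr1 and S1pr5 cluster, whose leading genes mark circulating effector cells, had 2124 for Lgals1, 1996 for Ahnak and 1728 for S100a10. In the Pdcd1 cluster these were 652, 797 and 1032, while S100a6 at 1896 and S100a11 at 761 were higher than the 999 and 545 of the Cx3cr1 cluster. Vim was lowest of the non-naive CD8 clusters in the Eomes and Penk cluster, at 605, and in the Gzmm cluster, at 611.

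The classes were also compared by the share of cells in which a gene was detected. After each cell was thinned to 2000 UMIs, S100a4 was detected in 31.1% of non-naive and 0.554% of naive CD8 T cells (means of 6 pools), and unthinned in 48.9% and 1.23%, at median depths of 6210.5 and 6729.5 UMIs. The thinned share was 87.5% in gamma-delta, 54.2% in Foxp3 CD4, 44.0% in non-naive CD4 and 0.484% in naive CD4 T cells. Lgals3 was detected in 18.9% of non-naive and 0.218% of naive CD8 T cells, and S100a11 in 58.8% and 27.0%. Thinning left out 165 of 9476 non-naive CD8 T cells and 40 of 852 gamma-delta T cells that held fewer UMIs.

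The 10 genes were only weakly tied to each other within single cells of 1 class. In thinned non-naive CD8 T cells the median Spearman correlation of the 45 pairs was 0.113, each pair taken at its median over the 6 pools, and in non-naive CD4 and gamma-delta T cells 0.181 and 0.128. The highest pair in CD8 T cells was S100a4 with S100a6, at 0.316, and in CD4 T cells S100a4 with Lgals1, at 0.346. In CD8 T cells 44 of the 45 pairs were above 0 in every pool, against 22 of 45 in gamma-delta T cells. The pools held far fewer cells of the second class, 39 to 287 gamma-delta against 396 to 3603 non-naive CD8 T cells before thinning. The part of cell number in this count was not tested. These values come from sparse counts of the same libraries and are a description only.

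Receptor sequences allowed the levels to be read by clone. Expanded cells, whose clonotype was found in at least 2 cells of the pool, were compared with singleton cells of the non-naive CD8 class, 4164 against 4576 cells. S100a4 had 341, 349, 325, 443, 380.2 and 402 CPM in expanded cells of 5XFAD-1, 5XFAD-2, PS-5X, PS19, WT-1 and WT-2, against 199, 172, 216, 229, 224 and 247 in singletons. S100a6 had 1749, 1494, 1401, 1744, 1781 and 1663 in expanded cells against 1086, 958, 1039, 1067, 955 and 1054 in singletons, and S100a11 491 to 649 against 374 to 449. For these 3 genes no expanded value overlapped a singleton value, and the share of all genes without such overlap is not given here. They were among 8 genes that were higher in expanded cells, where 10.4% of 10670 genes were higher and 10.3% lower, 20.7% in all: S100a4 (log2 0.79, SE 0.05, adjusted p = 6.1e-09), S100a6 (0.66), S100a11 (0.52), Lgals3 (0.52), Lgals1 (0.29), Anxa2 (0.27), Vim (0.24) and S100a10 (0.21). Crip1 (−0.02) and Ahnak (0.10) did not pass.

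The Gzmm and Klra7 cluster was spread unevenly between the groups: it held 1.30% of expanded and 27.1% of singleton cells. Without that cluster S100a4 (0.31, adjusted p = 0.00023), S100a6 (0.34, adjusted p = 5.5e-05) and S100a11 (0.31, adjusted p = 0.00038) were the 3 genes still higher, and Lgals3 was at 0.02. With pool and cluster together as a block S100a6 (0.33, adjusted p = 0.00035) and S100a11 (0.17, adjusted p = 0.029) passed, and S100a4 did not (0.23, adjusted p = 0.090). That fit took each cluster of a pool as its own pair of sums. Pairs from the same pool are not independent, so these p-values do not measure the spread between pools. The median depth was 5463 UMIs in expanded and 7087.5 in singleton cells, and the B cell list had 23.1 to 36.8 CPM in expanded and 69.3 to 113 in singleton cells; their part in the result was not tested.

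**Figure D4:**
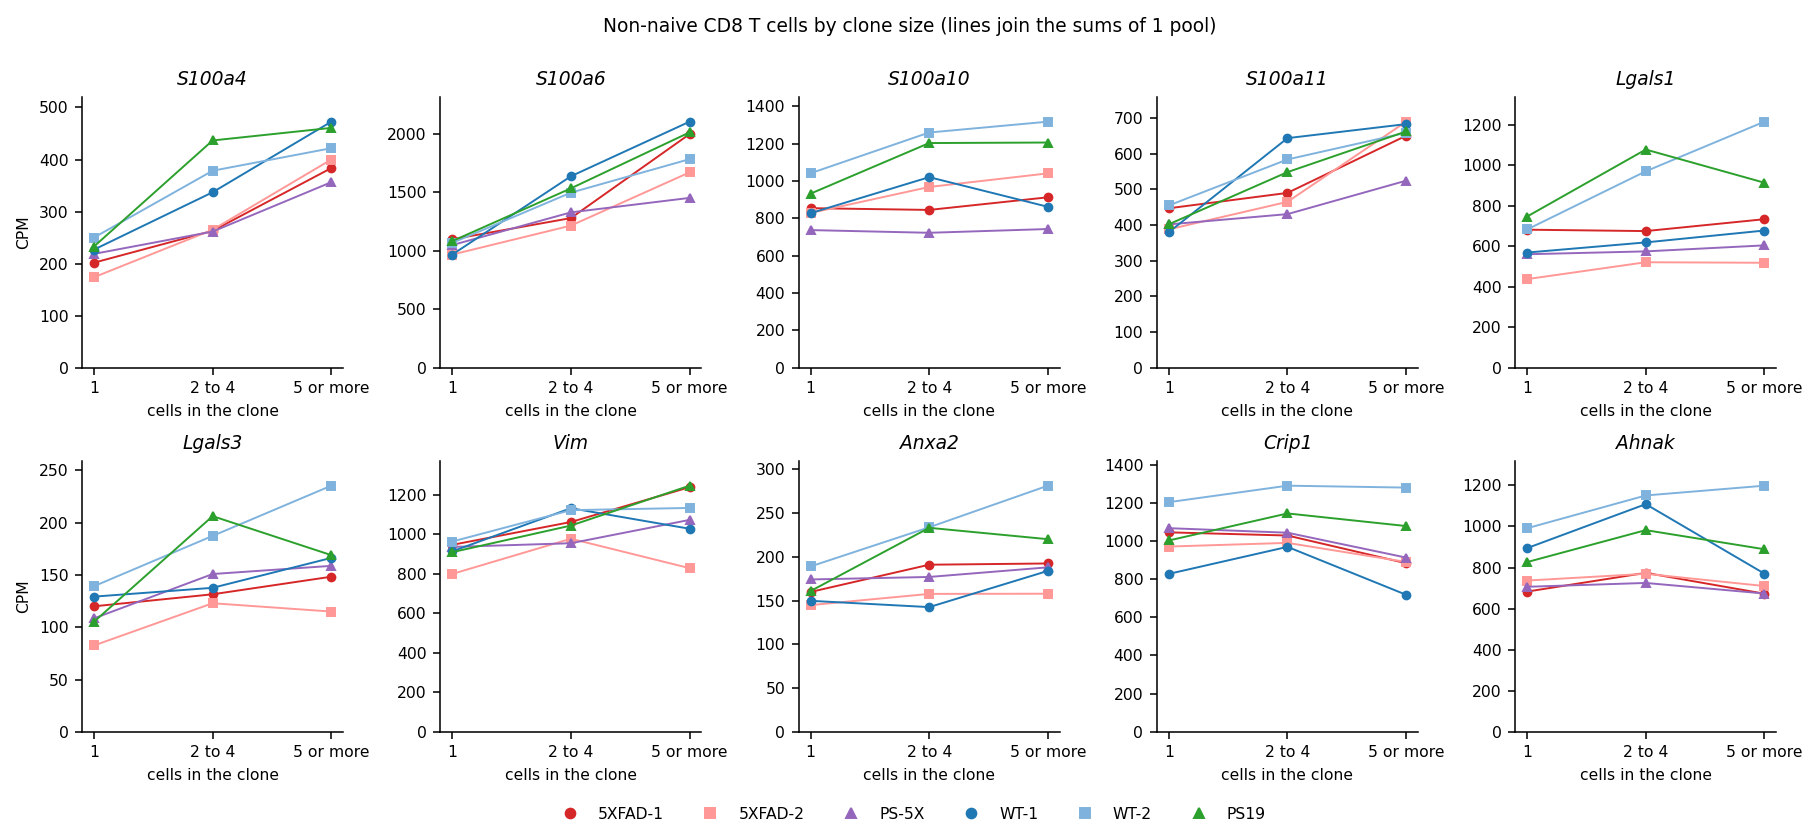
Level of each gene (CPM) in non-naive CD8 T cells whose clone held 1, 2 to 4, or 5 or more cells, with a line for each pool. S100a4, S100a6 and S100a11 are higher in clones of 5 or more cells than in singletons in every pool, while Crip1 averages 1019, 1077 and 960.0 and Ahnak 806, 918.5 and 819 over the 3 sizes. The WT-1 point at the largest size rests on 35 cells.

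Across clone sizes of 1, 2 to 4 and at least 5 cells, S100a4 averaged 217 ± 26.6, 324 ± 73.3 and 416 ± 44.9 CPM (SD, n = 6 pools), S100a6 1040 ± 57.5, 1416 ± 165 and 1838 ± 248, and S100a11 412 ± 31.2, 527 ± 79.7 and 645 ± 60.8. At the largest size WT-1 had 35 cells, and it was the highest pool for S100a4 (473) and S100a6 (2105). Clones of at least 5 cells were higher than singletons for 8 genes, where 10.8% of 9957 genes were higher and 10.9% lower, 21.7% in all, and for the same 3 as above without the Gzmm and Klra7 cluster. Clones of 2 to 4 cells were higher than singletons for 6 genes, among 3.08% of genes higher and 3.93% lower, 7.01% in all, and for none without that cluster. Clones of at least 5 cells were higher than those of 2 to 4 cells for 3 genes, where 1.51% of genes were higher and 1.79% lower, 3.29% in all. These were S100a4 (0.37, adjusted p = 0.0042), S100a6 (0.37, adjusted p = 0.0011) and S100a11 (0.31, adjusted p = 0.011), and all 3 kept the call without the Gzmm and Klra7 cluster, which held 3.79% of cells of the middle and 0.106% of the large size. None of the 3 passed once the cells with a receptor of another pool were left out in every pool, at 0.27 (adjusted p = 0.17) for S100a4, 0.20 (adjusted p = 0.35) for S100a6 and 0.28 (adjusted p = 0.065) for S100a11. WT-1 then held no cell in a clone of at least 5 cells and did not enter that group.

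Of the 42 related genes tested, 9 were higher and 4 lower in expanded CD8 cells, with a median of 0.03 against 0.01 for all genes. The integrin genes Itgb1 (512 ± 59.1 against 363 ± 23.8 CPM, log2 0.48), Itga4 (0.45) and Itgal (0.29) rose with Lmnb1, the lamin B1 gene (0.41), while Tmsb10 (−0.28), the actin-binding gene Tagln2 (−0.26), Cd7 (−0.23) and Cd44 (−0.19) fell. In non-naive CD4 T cells none of the 10 genes differed between expanded and singleton cells, where 2.31% of 7572 genes did, 1.12% higher and 1.19% lower. The largest difference was that of Lgals3, at 174 ± 75.9 in expanded against 143 ± 52.9 in singleton cells (log2 0.40, SE 0.12, adjusted p = 0.10), which passed without WT-1 (0.46, adjusted p = 0.032). Among the related genes Lmnb1 rose (0.53) and Lmna (−0.88), Itga4 (−0.55) and the actin cross-linker gene Flna (−0.47) fell in expanded CD4 cells. Whether the CD8 and CD4 differences differ was not tested.

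Single large clones spanned a far wider range than the pools did. Among 35 clones of at least 20 cells, S100a4 ran between 21.9 CPM, in a PS-5X clone of 29 cells with 3 UMIs (95% Poisson interval 4.51 to 63.9, counting error only), and 825 in a 5XFAD-2 clone of 29 cells (701 to 965), with a median of 353. Both of these clones had most of their cells in the Pdcd1 cluster. The clone that was lowest for S100a4 had 1123 CPM of S100a6, and a PS-5X clone of 24 cells had the opposite pattern, with 92.0 for S100a6 (15 UMIs, 51.5 to 152) and 448 for S100a4. The highest S100a6 clone, of 23 PS19 cells, had 3088. Lgals3 ran between 0, in a PS19 clone of 24 cells (upper bound 30.9), and 528 in a WT-2 clone of 20 cells.

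Lgals1 (337 to 2523) and Ahnak (385 to 2280.3) were highest in WT-2 clones of the Cx3cr1 cluster, and Crip1 had the narrowest range, 668 to 1630. Measured against the pools of its own main cluster, a clone lay below every pool for S100a4 in 15 and above every pool in 11 of the 35 clones, and for S100a6 in 15 and 16. All 10 genes had clones on both sides, such as S100a10 with 10 and 5 and Crip1 with 17 and 7. The Itgae and Ccr8 cluster, main cluster of 2 clones, was measured in 1 pool only. How many clones would lie outside by the sampling of few cells alone was not tested. The 35 clones came unevenly from the pools, 17 of them from PS-5X and 1 from WT-1, and cells of 1 clone are not replicates of a condition.

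**Figure D5:**
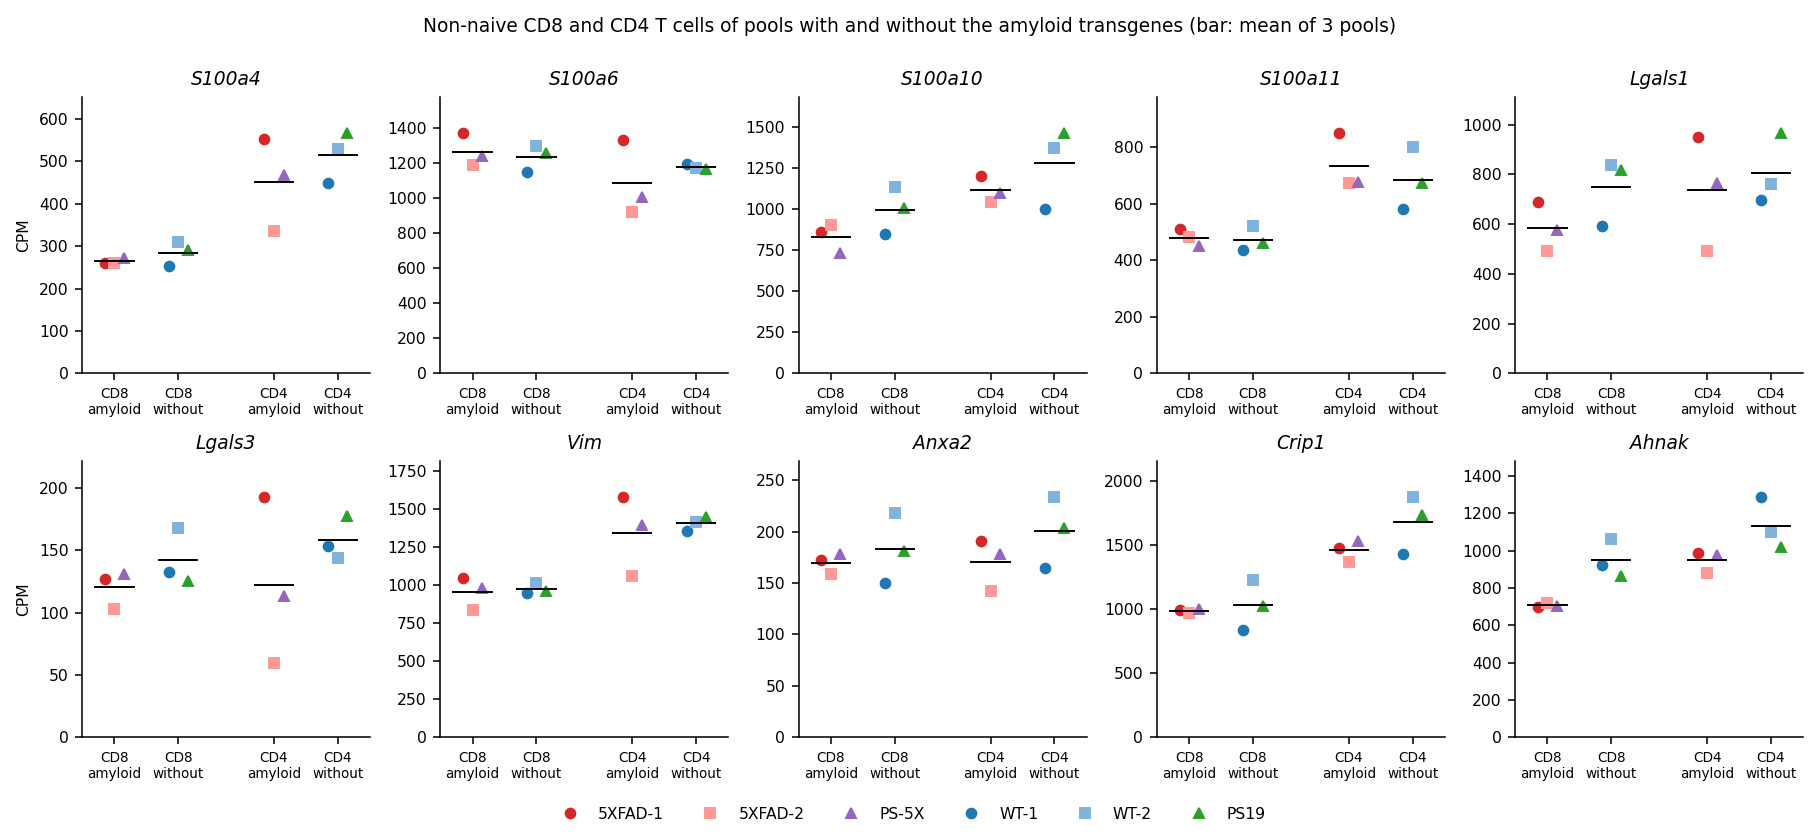
Level of each gene (CPM) in non-naive CD8 and non-naive CD4 T cells of the 3 pools with and the 3 pools without amyloid transgenes, with a bar at each mean. Ahnak is the only gene whose groups do not overlap, in both classes. For the others the 2 groups overlap. With 3 pools a side groups can lie apart by chance, and the share of all genes that did is not given here.

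The study also asked whether amyloid or tau transgenes go with changes in brain T cells. None of the 10 genes passed between pools with and without amyloid in non-naive CD8 T cells with edgeR (0% of 11387 genes passed, 1020 had an unadjusted p under 0.05, and DESeq2 called 69), nor between pools with and without tau (0% passed, 759 had an unadjusted p under 0.05, and DESeq2 called 15). Ahnak came closest: with amyloid it had 699 CPM in 5XFAD-1, 701 in PS-5X and 722 in 5XFAD-2, against 863 in PS19, 926 in WT-1 and 1063 in WT-2 without. All 3 amyloid pools lay below all pools without amyloid (log2 −0.42, SE 0.09, adjusted p = 0.16). The call turned with the method, passing with DESeq2 (adjusted p = 0.0042) and with the sequencing run as a block (adjusted p = 0.040), and not without WT-1 (adjusted p = 0.059). In the edgeR fit without the filter on low counts Ahnak (adjusted p = 0.0020) and Lgals1 (log2 −0.34, adjusted p = 0.024) passed. How many of all genes passed in that fit and with the run as a block is not given here. Within the runs, Ahnak was lower in 5XFAD-1 than in WT-1, in 5XFAD-2 than in WT-2 and in PS-5X than in PS19, by 0.30 to 0.56 on the log2 scale. In non-naive CD4 T cells Ahnak had 987 in 5XFAD-1, 977 in PS-5X and 881 in 5XFAD-2, against 1018 in PS19, 1287 in WT-1 and 1098 in WT-2, again with no overlap (log2 −0.25, adjusted p = 0.87). With 3 pools a side groups can lie apart by chance, and the share of all genes without overlap is not given here.

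Elsewhere the genotype comparisons gave no call in this family. In non-naive CD4 T cells 0.0435% of genes passed for amyloid and 0.076% for tau, in gamma-delta T cells 0.153% and 0.235%, and in naive CD8 T cells, where Lgals3 had too few counts to test, 0.0751% for amyloid (0.0429% higher) and 0.139% for tau (0.0429% higher), with none of the genes tested among them. The amyloid effect did not pass as different between non-naive CD8 and CD4 T cells for any of the 10 genes (0.133% of genes passed). The direction differed between pairs of pools from 1 run: in non-naive CD8 T cells 8 of the 10 genes were higher in 5XFAD-1 than in WT-1 (median log2 0.17), none in 5XFAD-2 over WT-2 (median −0.33) and 2 in PS-5X over PS19 (median −0.03). S100a4 in naive CD8 T cells had 7.03 CPM in 5XFAD-1, 4.67 in PS-5X and 7.83 in 5XFAD-2, against 2.53 in PS19, 1.92 in WT-1 and 1.39 in WT-2, without overlap but from 42 UMIs in all (adjusted p = 0.90). The limit given above for groups without overlap holds here too. For S100a6 in naive CD8 T cells the tau comparison turned on the run: −0.92 (adjusted p = 0.61) without and −1.97 (adjusted p = 8.6e-06) with the run as a block. The 2 high pools named above, 5XFAD-1 and WT-1, had only 47 and 36 UMIs of S100a6 there, in 99 and 75 cells. Their part in this shift was not tested.

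Across the 36 sums of pool and class, the genes outside the related list whose log level followed the mean of the 10 most closely were Prr13 (Pearson r 0.99 over 9770 genes compared), Rora (0.97), Fam129a (0.96), Atp2b4 (0.96) and Ndfip1 (0.96). Prr13 had 260.4 ± 19.4 in non-naive and 95 ± 16.7 CPM in naive CD8 T cells, and 427 ± 32.1 in gamma-delta T cells. Rora, a nuclear receptor gene expressed in type 17 cells, had 360.0 ± 55.1 in gamma-delta and 12.1 ± 2.07 in naive CD8 T cells. The lowest were Satb1 (−0.96), a chromatin organiser of T cell development, Pdk1 (−0.94) and Pik3ip1 (−0.93), an inhibitor of PI3 kinase. Satb1 had 122 ± 18.3 in non-naive and 419 ± 36.4 in naive CD8 T cells. The sums share pools and classes, so these values describe likeness and carry no test, and by rank correlation only 1 of the 5 and 1 of the 3 were the same.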

How the data were processed

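The submitters made unique molecular identifier (UMI) counts per gene and cell with Cell Ranger 6.0.1 (builds named GRCm38 and mm10), per the submitters' processing notes, and receptor contigs per cell. The deposited values are raw UMI counts. The 10 genes, the list of 64 related genes and all marker lists were chosen with earlier results of these data known.

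Cells needed at least 500 genes and a mitochondrial share of no more than 10%, and the highest doublet scores of Scrublet were removed at 0.8% per 1000 barcodes in each pool, and the kept cells had median depths per pool of 5405 to 6817 UMIs. Cells of all pools were clustered together with scanpy 1.11.5 (2000 variable genes, 30 components, 15 neighbours, Leiden resolution 1), with the 74 listed genes and receptor V and J genes left out. A class needed its lead marker and at least 3 markers in 50% of cells, and naive clusters needed 6 of 10 naive markers at 2-fold. UMIs were summed per pool and class, because cells of 1 pool are not replicates, and tested over all genes with edgeR 4.0.16 in R 4.3.3 (genes kept by filterByExpr, TMM scaling, the quasi-likelihood test, and a threshold of 0.05 on the p adjusted by Benjamini-Hochberg). The pool was a block in comparisons of classes and clone sizes, since both sides came from the same mice, and the other transgene was a term in comparisons of genotypes. The sequencing run pairs WT-2 with 5XFAD-2, per the labels, and was used as a block only in an alternative. Related genes are named by a fixed rule: up to 4 that passed with the largest rise and up to 4 with the largest fall, at a mean of at least 20 CPM. The tests were tried on simulated counts first. Poisson intervals are 95% and cover counting error only. There were 0 columns of samples of another series. Promoters were read from RefSeq tables of GRCm38.p6 and searched on both strands. The deposited UMI counts are the only unit used, and CPM is scaled from them. Alternatives were DESeq2 1.42.0, its size factors, no gene filter, each pool left out, WT-1 cells with shared receptors left out, doublets kept, another resolution, classes from marker UMIs per cell, the 74 genes kept in clustering and other blocks. The alternatives without the Gzmm and Klra7 cluster, without shared-receptor cells in any pool, with pool and cluster as a block, and with the run as a block and no WT-1 were chosen after seeing the data.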

Additional observations from a re-analysis of the deposited data

Results flagged for a closer look

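Over the 60 groups of 6 pools (10 genes in 6 classes), 3 held a value whose gap to its nearest neighbour was large for the range of the group, a gap that chance gives in about 5% of groups. S100a10 in Foxp3 CD4 T cells was lowest in WT-1, at 683 CPM from 26 UMIs, against 2202 in the nearest pool. Anxa2 in Foxp3 CD4 T cells was also lowest in WT-1, at 0, against 158 in the nearest pool. WT-1 held 4 such cells, and the part of this depth in both values was not tested. Lgals1 in gamma-delta T cells was highest in PS19, at 1821 CPM from 1018 UMIs, against 1312 in the nearest pool.

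The non-naive step differed between lineages for 5 genes by the test of the difference itself (edgeR quasi-likelihood test, CD8 minus CD4 on the log2 scale): S100a10 (−0.81), S100a11 (−1.41), Vim (−0.63), Crip1 (−0.96) and Ahnak (−1.99). In the classes from marker UMIs none of the 5 passed, and all but Crip1 had the opposite sign.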

How the results depend on the processing

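Of the 10 genes, the counts that passed between naive and non-naive cells (10 and 10), between non-naive CD4 and CD8 (6) and between gamma-delta and non-naive CD8 T cells (10) stayed within 1.5 times under every alternative run. Classes drawn from marker UMIs gave 4 in place of 7 genes for Foxp3 CD4 T cells, 5 in place of 8 for gamma-delta against non-naive CD4 T cells, and 4 higher in place of 5 lower for the difference between lineages, where S100a4 (1.69), S100a6 (2.12), Anxa2 (2.01), S100a10 (0.080), S100a11 (0.14), Vim (0.29) and Ahnak (0.32) turned sign. For expanded CD8 cells 8 genes became 3 without the Gzmm and Klra7 cluster and 2 with pool and cluster as a block. In the latter fit, clusters of the same pool entered as separate pairs of sums, which are not independent. Without that cluster, clones of at least 5 cells against singletons gave 3 in place of 8 and clones of 2 to 4 cells 0 in place of 6, with Lgals3 at −0.016. Without the cells of any pool that shared a receptor with another pool, clones of at least 5 against 2 to 4 cells gave 0 in place of 3, and the counts of the other comparisons stayed within 1.5 times. Expanded CD4 cells gave 1 in place of 0 with doublets kept, at Leiden resolution 1.6 and with marker classes.

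Leaving out 1 pool at a time gave 6 to 7 genes for Foxp3 CD4 T cells, 0 to 1 for expanded CD4 cells, 4 (without WT-1) to 9 (without PS-5X) for clones of 2 to 4 cells against singletons and 2 to 4 for clones of at least 5 against 2 to 4 cells. It did not change the other counts.

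Without the replicate block (the pool), 5 in place of 8 genes passed for expanded CD8 cells, 5 in place of 8 for clones of at least 5 cells against singletons, 3 in place of 6 for clones of 2 to 4 cells, and 0 in place of 3 between the larger sizes. With the sequencing run as a replicate block, 1 gene passed for amyloid in non-naive CD8 T cells (also 1 without WT-1) and 1 for tau in naive CD8 T cells (2 without WT-1), and with the block and no WT-1 1 passed for amyloid in naive CD8 T cells. The block changed the number of the 10 genes called in no other genotype comparison. How many of all genes passed with the run as a block is not given here.

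For amyloid in non-naive CD8 T cells DESeq2 called 1 and a fit without the gene filter 2 of the 10 genes. Without the filter 1 passed for tau in naive CD8 T cells. How many of all genes passed in the fits without the filter is not given here. The median within-cell correlation was 0.197 without thinning, against 0.113 with it. Over all genes, 2206 called for expanded CD8 cells became 645 without the Gzmm and Klra7 cluster, 186 with the cluster block, 1076 without the block and 1425 with DESeq2, and 748 called for the difference between lineages became 181 with marker classes and 483 without the block. Foxp3 CD4 T cells could not be compared with doublets kept, as no cluster was named so. The causes of these shifts were not tested. WT-1 was the smallest pool and held 4 Foxp3 CD4 T cells.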
